A study of Canis lupus familiaris with 29 samples.

Results

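The inhibitors of cyclin-dependent kinases (CDKs) and the D-type cyclins set whether an epithelial cell starts another division cycle. A set of 9 genes was followed by name: the KIP inhibitor genes CDKN1B and CDKN1C, the INK4 inhibitor genes CDKN2A, CDKN2B, CDKN2C and CDKN2D, and the D cyclin genes CCND1, CCND2 and CCND3. Of the 9, 7 had a row among the 24223 genes of the expression files, each with 1 row. CDKN1C and CDKN2D were not found under those names and are not analysed here. CDKN2A was listed at 0 FPKM (fragments per kilobase of transcript, scaled to the fragments mapped in the library) in all 29 libraries, so it could not be tested. The 6 genes that remained, CDKN1B, CDKN2B, CDKN2C, CCND1, CCND2 and CCND3, reached 1 FPKM in at least 2 libraries and were among the 11774 genes tested.

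D cyclins bind CDK4 and CDK6, and the active kinases phosphorylate the retinoblastoma protein RB1 and its relatives, which frees E2F factors to switch on genes for DNA replication. INK4 proteins bind CDK4 and CDK6 and keep them from D cyclins. KIP proteins bind cyclin-CDK complexes, inhibit CDK2 with cyclin E, and are also held by D cyclin complexes. Epithelial cells that reach confluence or polarise usually leave the cycle, and the product of CDKN1B is known for accumulating in cells arrested by contact.

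Messenger RNA was sequenced from MDCKII cells, a dog kidney epithelial line that forms hollow cysts in matrigel and polarised sheets on filters. Wild-type cells were sampled at seeding (day 0, n = 4) and on matrigel (3D) at 24 h, days 3, 5 and 8 (n = 2 each) and day 14 (n = 1). They were also sampled on transwell inserts past confluence (2D) at days 4 and 11 (n = 3 each). Cells with a knockdown (KD) of DENND5A were sampled at day 0 and 2D days 4 and 7, and cells with a knockdown of AVL9 at day 0 and 2D day 4 (n = 2 each). Both are DENN domain genes, whose proteins act on RAB GTPases. The day 0 cells are those used for seeding, and all cells were kept in medium with serum. The knockdown libraries carry the numbers 1 and 2 (DENND5A) and 1 and 4 (AVL9), called lines here. The labels do not say how the lines were made, and no line with a control knockdown is analysed here. The labels do not tell whether replicates are independent cultures. The p-values therefore reflect only how far these libraries spread, which may be technical. In bulk RNA, fewer cells making a transcript and less of it per cell cannot be told apart.

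The libraries summed to between 276017 and 441332 FPKM. Read counts were not used here, so depth is known only as a ratio between libraries, 0.444 to 1.66 times that of 1 day 0 library. In an earlier look at these data 5 wild-type libraries were seen to stand apart. They are the day 14 library and every library numbered 1 at day 0, at days 3 and 8 on matrigel and at day 4 on inserts. Their relative depth was 0.444 to 0.742 against 0.532 to 1.66 in the other 24, and TIMM13, a mitochondrial import gene, was listed at 0 in the 5 and at 30.9 to 397 FPKM elsewhere. Calls of the members that change without them are given both ways. The epithelial markers EPCAM, CDH1, KRT19, CDH16 and CLDN4 summed to 688 to 1515 FPKM (KRT8 and KRT18 were not found by name). All 14 fibroblast, endothelial and leukocyte markers found in the files stayed under 1 FPKM in every library. DENND5A read 1.88 and 2.02 FPKM in its knockdown at day 0 against 4.98 to 6.89 in wild type, and AVL9 read 5.70 and 7.21 against 22.2 to 23.7, so the targeted genes were low in the libraries labelled as their knockdowns.

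In wild-type cells the D cyclin transcripts fell and CDKN1B rose between 24 h and day 3 of 3D culture, and the same pattern stood at 2D day 4. No member passed the test after 24 h on matrigel, although 1 of the 6, CDKN1B, had an unadjusted p under 0.05, and 1.19% of all genes tested passed. At 3D day 3, 5 of the 6 members differed from day 0, where 51% of all genes tested differed. On day 5 in 3D the count was 4 of 6 beside 57.6% of all genes, and on day 8 again 4 of 6 beside 62.8%. On inserts 5 of 6 differed by day 4 (59.9% of all genes) and 3 of 6 by day 11 (55.9%). The members thus passed among a majority of all genes, and their number does not set them apart. All of these comparisons share the same 4 day 0 libraries. From 24 h to 3D day 3, 4 of 6 members passed (34.4% of all genes), from 3D day 3 to day 8, 1 of 6 (15.6%), and from 2D day 4 to day 11, 1 of 6 (2.08%).

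**Figure D1:**
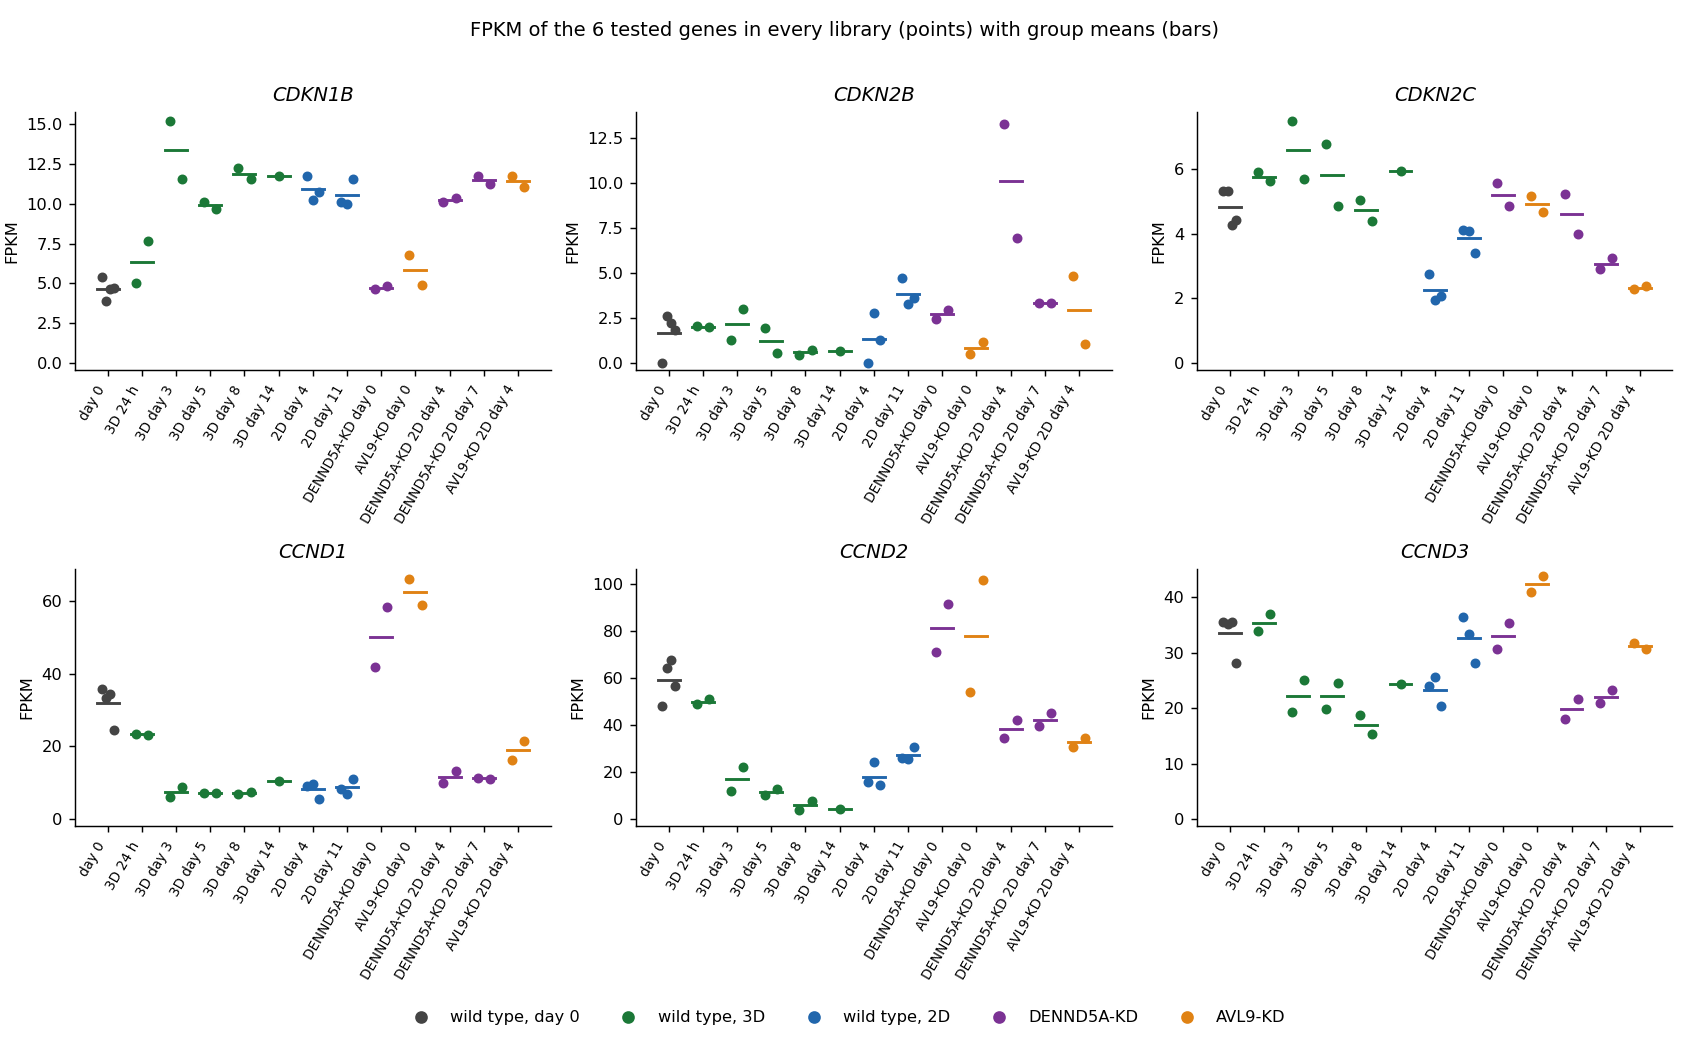
FPKM (vertical axes, linear, each panel with its own range) of the 6 tested genes in the 13 groups (horizontal axes). Points are libraries and horizontal bars are group means. CDKN1B lies between 9.67 and 15.2 FPKM in the 19 libraries from 3D day 3 onwards and all 2D cultures, above its highest value at day 0 in any genotype, 6.81 FPKM.

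CDKN1B (ENSCAFG00000013244), which encodes the KIP inhibitor p27, read 5.41, 3.91, 4.66 and 4.72 FPKM in the 4 day 0 libraries. After 24 h on matrigel it read 5.04 and 7.64 FPKM. It then read 15.2 and 11.6 FPKM at 3D day 3, 10.1 and 9.67 at day 5, 12.3 and 11.5 at day 8, and 11.7 in the day 14 library. Every library from 3D day 3 onwards lay above every day 0 and 24 h library. On inserts it read 11.8, 10.3 and 10.8 FPKM at day 4 and 10.1, 10.0 and 11.6 at day 11, also above all day 0 values. The log2 difference of FPKM + 1 from day 0, the scale of every fold change here, was 1.34 ± 0.14 (SE) at 3D day 3 (adjusted p = 3.84e-07), 0.95 ± 0.14 at day 5, and 1.19 ± 0.14 at day 8. On inserts it was 1.08 ± 0.12 by day 4 and 1.03 ± 0.12 by day 11. From 24 h to 3D day 3 alone it rose by 0.98 ± 0.16 (adjusted p = 0.000161), a call lost with the spread taken from these 4 libraries alone (adjusted p = 0.0500191). Between 3D day 3 and day 8 (-0.15 ± 0.16) and between 2D day 4 and day 11 (-0.05 ± 0.13) it did not pass the test. Ordered by mean level, the 9 groups of later culture took the first 9 places, from 13.4 FPKM at 3D day 3 to 9.91 at 3D day 5, and neighbours in that order overlapped. The lowest of them did not overlap with 24 h (6.34 FPKM), and the 3 day 0 groups, at 4.68 to 5.84 FPKM, came last with it.

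CDKN1A, the other KIP gene with a row and not one of the 9 members, took another course. It encodes p21, an inhibitor best known as a target of p53. Its day 0 libraries held 8.32 to 16.9 FPKM and those at 24 h 17.9 and 19.7. At 3D day 3 it read 16.4 and 8.54 FPKM, which overlapped with day 0. It was lower from 3D day 5, with means of 3.26 FPKM at day 5 (-1.61 ± 0.29, adjusted p = 9.60e-05) and 3.18 at day 8. On inserts it was also lower, at 2.92 FPKM on day 4 (-1.76 ± 0.26, adjusted p = 6.94e-06) and 3.13 on day 11. At 3D day 3, therefore, CDKN1B was already above day 0 in both libraries while CDKN1A (-0.01 ± 0.29, adjusted p = 0.99) did not pass the test.

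CDKN2C (ENSCAFG00000028905), which encodes the INK4 inhibitor p18, was the member whose libraries did not overlap between later 3D and 2D cultures. It read 5.31, 5.32, 4.26 and 4.43 FPKM at day 0, 5.90 and 5.62 at 24 h, and 7.48 and 5.70 at 3D day 3. It then read 6.77 and 4.87 FPKM at 3D day 5, 5.04 and 4.40 at day 8, and 5.93 at day 14. On inserts it read 2.76, 1.95 and 2.06 FPKM at day 4 and 4.12, 4.07 and 3.39 at day 11. All 3 libraries of 2D day 4 lay below all other wild-type libraries, and all 6 of the 2D libraries lay below all 13 wild-type libraries of day 0 and 3D. CDKN2C fell by 0.84 ± 0.12 at 2D day 4 (adjusted p = 6.50e-06). By 2D day 11 it stood 0.26 ± 0.12 below day 0, which did not pass (adjusted p = 0.077, but 0.00616 after quantile normalization and 0.0284 after median-ratio scaling). It rose from 2D day 4 to day 11 by 0.58 ± 0.13 (adjusted p = 0.0266). That call was lost without replicate 2 or 3 of day 4 or replicate 1 or 2 of day 11 (adjusted p of 0.0706 to 0.19) and when the groups were fitted alone (0.238).

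In 3D, CDKN2C was 0.38 ± 0.14 above day 0 at day 3 (adjusted p = 0.0288). The call was lost without day 3 replicate 1 (0.21 ± 0.17, adjusted p = 0.368), without all 5 libraries that stood apart (0.25 ± 0.17, adjusted p = 0.264), and without day 0 replicate 3 or 4 (adjusted p of 0.0720 and 0.0604). It was lost also under quantile normalization (0.092), median-ratio scaling (0.0513) and a fit of these groups alone (0.0768). At days 5 (0.22 ± 0.14) and 8 (-0.02 ± 0.14) it did not pass, though without day 5 replicate 3 the day 5 value passed (0.42 ± 0.17, adjusted p = 0.0448). Over 3D days 3 to 8 set against both 2D times, CDKN2C was 0.74 ± 0.09 higher in 3D (adjusted p = 1.67e-06).

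CDKN2B (ENSCAFG00000001680), which encodes the INK4 inhibitor p15 and is a known target of TGF-beta signalling in epithelia, was low. It was above 0 in 27 libraries and reached 1 FPKM in 22. Day 0 libraries read 0, 2.59, 2.24 and 1.84 FPKM and those at 24 h 2.04 and 2.02. In 3D it read 1.30 and 3.01 at day 3, 1.97 and 0.532 at day 5, 0.44 and 0.742 at day 8 and 0.669 at day 14. On inserts it read 0, 2.75 and 1.27 FPKM at day 4 and 4.71, 3.25 and 3.62 at day 11. The 2 libraries at 0 were both among the 5 that stood apart. The 2D day 11 libraries lay above all 4 day 0 libraries, but the difference, 1.01 ± 0.45, did not pass (adjusted p = 0.0604). It passed without day 0 replicate 2 (1.20 ± 0.47, adjusted p = 0.0380). Over all 15 alternatives the difference ran from 0.59 to 1.90, with limma adjusted p of up to 0.235, and 2 passed. None of its other wild-type comparisons with day 0 passed, and its standard errors of 0.45 to 0.50 there were the largest of the 6 members.

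CDKN2A (ENSCAFG00000001675), whose products restrain CDK4 and CDK6 and protect p53, shares its place in the genome with CDKN2B. In the RefSeq gene table, of another assembly (UU_Cfam_GSD_1.0), the order is MTAP, CDKN2A, CDKN2B, DMRTA1. MTAP, a gene of methionine salvage, was expressed in every library, at 1.40 to 5.15 FPKM, while CDKN2A and the antisense gene CDKN2B-AS were listed at 0 in all 29. A value of 0 in these files may also be a failed estimate, and whether fragments were assigned by strand is not given in the sources used here, so reads of CDKN2B and of an antisense transcript may not be separable. MTAP itself was lower than day 0 at 3D day 8 (-0.92 ± 0.14, adjusted p = 1.62e-05) and at 2D day 4 (-0.51 ± 0.13, adjusted p = 0.00177).

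CCND1 (ENSCAFG00000010700) encodes cyclin D1, the D cyclin best known as a growth factor response gene. It read 35.8, 33.3, 34.4 and 24.4 FPKM at day 0 and 23.4 and 23.2 at 24 h, where both libraries lay just below day 0 (-0.43 ± 0.21, adjusted p = 0.376). By 3D day 3 it read 6.13 and 8.85 FPKM, by day 5 7.16 and 7.14, by day 8 7.06 and 7.47, and at day 14 10.6. On inserts it read 9.15, 9.75 and 5.64 FPKM at day 4 and 8.31, 6.83 and 11.1 at day 11. All later wild-type libraries lay below all day 0 and 24 h libraries. The difference from day 0 was -1.96 ± 0.21 at 3D day 3 (adjusted p = 4.77e-07) and -1.98 ± 0.21 at day 8, and day 5 passed as well (adjusted p = 1.64e-07). On inserts it was -1.86 ± 0.18 by day 4 and -1.77 ± 0.18 by day 11. From 3D day 3 to day 8 the difference was -0.02 ± 0.24, and between the 2D days it was 0.10 ± 0.20, neither past the test.

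CCND2 (ENSCAFG00000015381), which encodes cyclin D2, was the D cyclin with the widest range, from 4.02 to 102 FPKM over all libraries. It read 48.3, 64.2, 67.6 and 56.5 FPKM at day 0 and 48.9 and 51.1 at 24 h. In 3D it read 12.2 and 22.1 at day 3, 10.2 and 12.9 at day 5, 4.02 and 7.97 at day 8 and 4.27 at day 14. On inserts it read 15.9, 24.2 and 14.5 FPKM at day 4 and 26.0, 25.7 and 30.6 at day 11. All later wild-type libraries were below day 0, and the day 8 and day 14 libraries were the lowest of all. The difference from day 0 was -1.77 ± 0.26 at 3D day 3, -2.25 ± 0.26 at day 5 and -3.15 ± 0.26 at day 8 (adjusted p = 6.30e-09), against -1.67 ± 0.23 at 2D day 4 and -1.07 ± 0.23 at 2D day 11 (adjusted p = 0.000553). CCND2 was the only member called between 3D day 3 and day 8 (-1.38 ± 0.30, adjusted p = 0.00552), and that call was lost without day 3 replicate 2 (-0.98 ± 0.34, adjusted p = 0.0944), without day 8 replicate 1 (-0.96 ± 0.34, 0.0658) and in a fit of these groups alone (0.168). With a term for the 5 libraries that stood apart CDKN2C was called there too (-0.40 ± 0.14, adjusted p = 0.0478). On inserts CCND2 stood higher at day 11 than at day 4 in every library, but 0.60 ± 0.25 did not pass (adjusted p = 0.244).

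CCND3 (ENSCAFG00000001618), which encodes cyclin D3, fell least. It read 35.4, 35.1, 35.4 and 28.2 FPKM at day 0 and 33.8 and 37.0 at 24 h. In 3D it read 19.3 and 25.0 at day 3, 19.8 and 24.5 at day 5, 18.7 and 15.3 at day 8 and 24.4 at day 14. On inserts it read 24.1, 25.6 and 20.3 FPKM at day 4 and 36.4, 33.3 and 28.2 at day 11. The 3D libraries from day 3 on and the 2D day 4 libraries were all below day 0, whereas 2D day 11 overlapped with it. CCND3 fell by 0.58 ± 0.14 at 3D day 3 (adjusted p = 0.00175), by 0.58 ± 0.14 at day 5, by 0.94 ± 0.14 at day 8 (adjusted p = 7.86e-06) and by 0.50 ± 0.12 at 2D day 4 (adjusted p = 0.00141). At 2D day 11 the difference was -0.04 ± 0.12 (adjusted p = 0.806). The day 3 call was lost without day 3 replicate 1 (-0.40 ± 0.17, adjusted p = 0.0746) and without the 5 libraries (-0.37 ± 0.18, 0.115), and the day 5 call without day 5 replicate 2 (-0.43 ± 0.18, 0.0509). The fall from 24 h to day 3 (-0.66 ± 0.16, adjusted p = 0.00376) was likewise lost without day 3 replicate 1 (-0.48 ± 0.19, 0.0771) and without the 5 libraries (-0.48 ± 0.19, 0.0774). The rise from 2D day 4 to day 11, 0.47 ± 0.13, missed the threshold (adjusted p = 0.0717) but passed after quantile normalization (0.0406), after median-ratio scaling (0.0377) and without day 11 replicate 3 (0.0257).

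**Figure D2:**
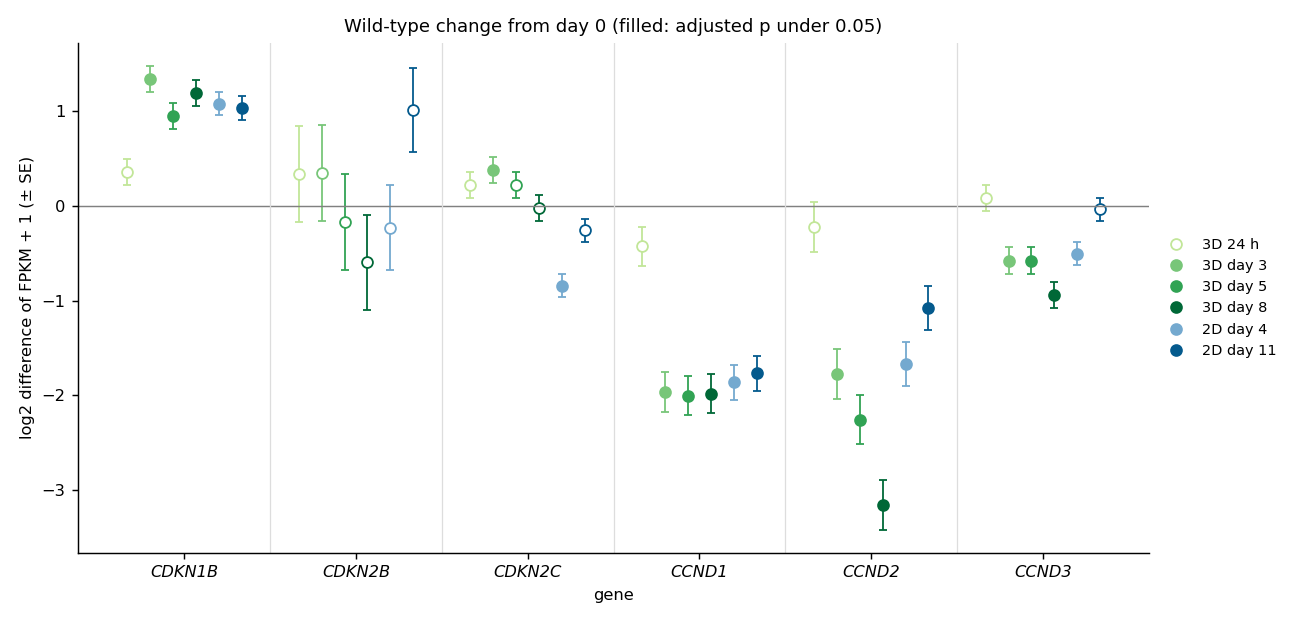
Log2 difference of FPKM + 1 from wild-type day 0 (vertical axis, bars are standard errors from limma) for the 6 tested genes (horizontal axis) at 6 wild-type times. Filled points passed an adjusted p of 0.05. At 24 h no point is filled, CCND2 falls furthest at 3D day 8 (-3.15), and CCND3 is back near 0 at 2D day 11 (-0.04).

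The 3 D cyclins fell to different depths, and their mixture shifted. The summed D cyclin level was 125 ± 12.9 FPKM (SD, n = 4) at day 0, of which CCND2 made 47.5%, CCND3 26.9% and CCND1 25.6%. At 24 h the sum was 109 FPKM and CCND2 still made 46.0%. By 3D day 8 the sum was 30.3 ± 0.720 FPKM (SD, n = 2), with 56.3% from CCND3, 24.0% from CCND1 and 19.7% from CCND2, and in the day 14 library CCND3 made 62.2% and CCND2 10.9%. On inserts CCND3 made 47.4% at day 4 and 47.5% at day 11, and CCND2 made 36.3% and 39.9%. CCND3 was thus the most abundant D cyclin by mean share in every later wild-type group, in place of CCND2 at day 0 and 24 h. CCND2 exceeded CCND3 in 1 of the 13 libraries of those groups, 2D day 11 replicate 3 (43.8% against 40.3%).

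CDKN1B per 100 FPKM of summed D cyclins sets the inhibitor beside the cyclins it binds. It was 4.52, 2.95, 3.39 and 4.33 in the day 0 libraries and 4.75 and 6.86 at 24 h. It was 40.3 and 20.6 at 3D day 3, 27.3 and 21.7 at day 5, 41.2 and 37.5 at day 8 and 29.9 at day 14, and on inserts 24.0, 17.2 and 26.6 at day 4 and 14.3, 15.2 and 16.6 at day 11. All later libraries lay above all day 0 and 24 h libraries. Over the 6 libraries of 3D days 3 to 8 the ratio averaged 31.4 ± 9.38 (SD) against 19.0 ± 5.06 in the 6 of the 2D times, with ranges of 20.6 to 41.2 and 14.3 to 26.6 that overlapped. In the same libraries the summed D cyclins averaged 39.3 ± 9.77 FPKM in 3D and 59.3 ± 12.2 in 2D, and the share of CCND2 averaged 28.0 ± 8.57% and 38.1 ± 3.98%. The sums, shares and ratios were chosen with the values of their members known and are given as descriptions, with no test.

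**Figure D3:**
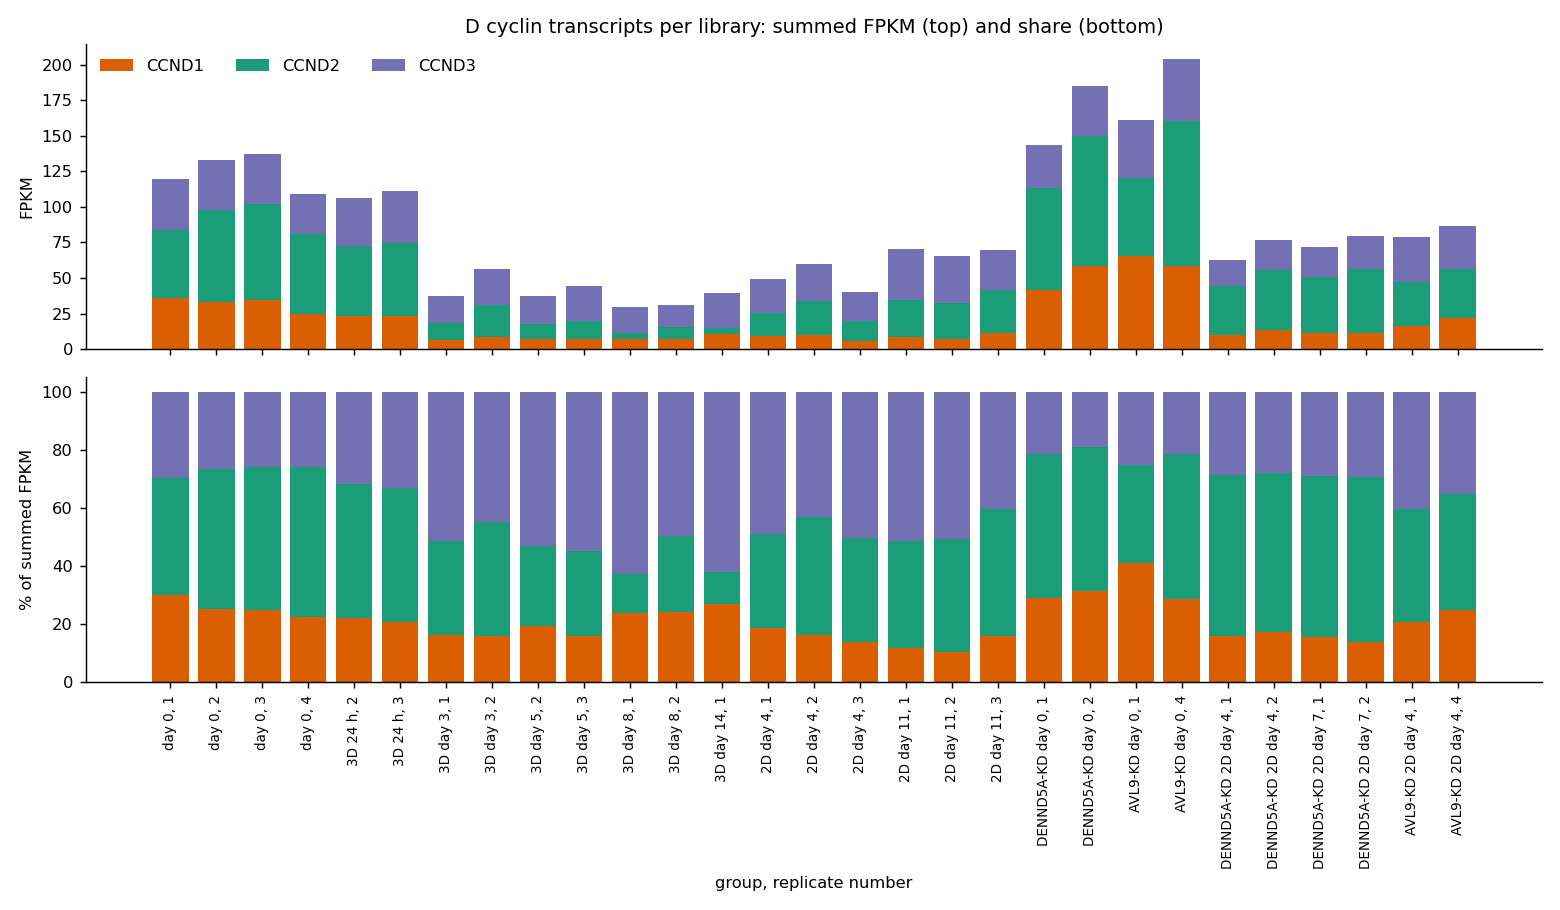
Summed FPKM of CCND1, CCND2 and CCND3 (top, vertical axis in FPKM) and the share of each in percent (bottom) for each of the 29 libraries, named by group and replicate number on the horizontal axis. The sum drops from 109 to 137 FPKM at wild-type day 0 to 29.7 and 30.8 at 3D day 8, and the share of CCND2 is 54.7 to 56.7% in the 4 later DENND5A-KD libraries.

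Exit from the cell cycle was read from 2 lists, 18 mitosis genes and 20 DNA replication genes found in the files, as counts beside the members. None of either list passed at 24 h. At 3D day 3, 10 of 18 mitosis genes fell and 1, CDC25C, rose, a call lost without either day 3 library (median -0.69), and 16 of 20 replication genes fell (median -0.68), with the median of all genes at 0.05. By 3D day 8 all 18 and all 20 were lower (medians -1.78 and -1.49). The same held on inserts, with medians of -2.39 and -1.96 on day 4 and -1.38 and -1.40 on day 11. Among the genes of smallest adjusted p in each list at 2D day 4 were the mitotic kinase gene PLK1 (-2.61 ± 0.18), the anaphase activator CDC20 (-2.40 ± 0.15), the helicase subunit MCM5 (-2.75 ± 0.14) and UHRF1, which couples replication to DNA methylation (-2.42 ± 0.12). From 2D day 4 to day 11, 16 mitosis genes and 10 replication genes were higher again (medians 0.99 and 0.56), with MCM5 (0.90 ± 0.15) and BIRC5 (1.04 ± 0.19) at the smallest adjusted p. None of the 16 and 10 calls held with these groups fitted alone, or without day 4 replicate 3 or day 11 replicate 1 or 2. In both groups CDKN1B read 10.0 FPKM or more in every library.

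Between 3D day 3 and day 8, CDKN1B and CCND1 did not pass the test, while 16 of the 18 mitosis genes were lower at day 8 than at day 3 (median -1.04, with the median of all genes at -0.19). Those 16 calls fell to 0 with these groups fitted alone, to 4 without the 5 libraries that stood apart, to 8 and 9 under quantile normalization and median-ratio scaling, and to 5, 8 and 4 without day 3 replicate 1, day 3 replicate 2 or day 8 replicate 2. Over the 13 group means of log2(FPKM + 1), the correlation with the mean of the mitosis genes was r = -0.80 for CDKN1B, 0.66 for CDKN2C, 0.65 for CCND1, 0.58 for CCND2, 0.54 for CCND3 and 0.03 for CDKN2B. With the mean of the replication genes it was -0.87, 0.54, 0.80, 0.68, 0.67 and -0.01 in the same order. These are descriptions over groups that share lines and culture times. Among the members, CDKN1B and CCND1 ran most nearly opposite (r = -0.88 over 13 groups), and CCND1 and CCND3 most nearly together (0.81).

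**Figure D4:**
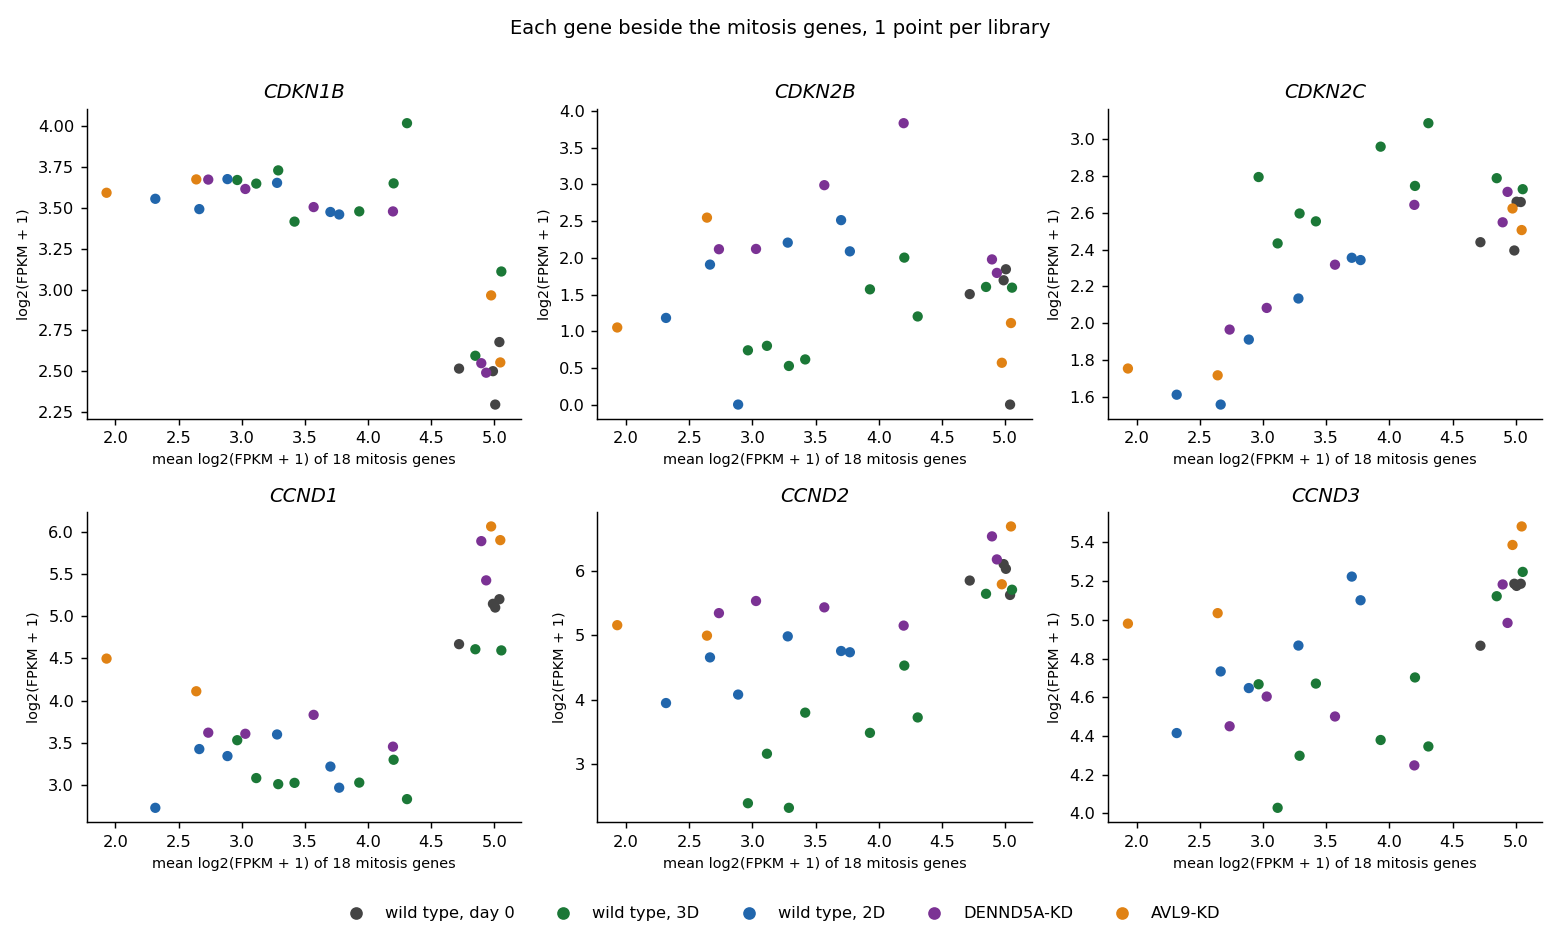
Log2(FPKM + 1) of each of the 6 genes (vertical axes, each with its own range) against the mean log2(FPKM + 1) of 18 mitosis genes (horizontal axes), 1 point for each of 29 libraries, coloured by culture and genotype. For CDKN1B the points form 2 levels, with the 10 day 0 and 24 h libraries at 7.64 FPKM or less at the highest mitosis means and the other 19 at 9.67 FPKM or more, all at lower mitosis means.

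The partners of the members moved as follows in wild-type cells. Of all genes tested, 38% were lower and 24.7% higher at 3D day 8, and 29.6% lower and 30.3% higher at 2D day 4, and the counts of each list stand beside these shares. Of 17 CDK, cyclin E and RB-E2F genes, 13 were lower and 1 higher at 3D day 8, and 13 lower and 3 higher at 2D day 4. CDK6, a kinase partner of D cyclins, fell from 61.2 FPKM at day 0 to 11.6 at 3D day 8 (-2.28 ± 0.16, adjusted p = 6.44e-10) and to 34.6 at 2D day 4 (-0.79 ± 0.14). CDK4, the other partner, was lower by -0.89 ± 0.16 and -1.18 ± 0.14. Cyclin E2, encoded by CCNE2, which acts with CDK2 after the D cyclins, did not pass at 3D day 3 (0.13 ± 0.20) and was lower at 2D day 4 (-1.69 ± 0.17). CCNE1 was lower at both (-0.74 ± 0.16 and -1.26 ± 0.14). For these cyclin E genes the 3D time given is day 3, earlier than the day 8 of the counts. In the day 14 library, with no test, CCNE2, CCNE1 and CDK2 stood at -0.72, -1.43 and -0.70 against the day 0 mean. E2F1, an activating E2F, was lower at 3D day 8 (-1.26 ± 0.23) and 2D day 4 (-1.80 ± 0.20). Of the pocket proteins, RB1 was lower at 3D day 8 (-0.62 ± 0.11), with no call at 2D day 4 (-0.02 ± 0.10). RBL1 was lower at both times (-0.56 ± 0.14 and -0.38 ± 0.12). RBL2, the family member typical of resting cells, was higher at the earlier 3D time of day 3 (0.59 ± 0.13) and at 2D day 4 (0.55 ± 0.11). Its value at 3D day 8 is not given here, and in the day 14 library it stood 0.42 above the day 0 mean, with no test.

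Of the 10 tested genes for turnover of inhibitors and cyclins, 6 were lower and 2 higher at 3D day 8, and 5 lower and 2 higher at 2D day 4, with 1 of the 2 higher calls at 3D day 8 lost without the 5 libraries that stood apart. SKP2, the receptor that marks the CDKN1B product for destruction, fell from 14.5 FPKM at day 0 to 4.65 (-1.45 ± 0.13) and 5.46 (-1.27 ± 0.11) at these times. The 2 that rose were AMBRA1, whose product directs D cyclins to degradation (0.50 ± 0.13 and 1.10 ± 0.11), and RNF123, a subunit of another ligase for the CDKN1B product (0.86 ± 0.12 and 0.81 ± 0.11). Of 8 tested DREAM and MuvB genes, which repress or drive the cell cycle genes, 6 were lower at 3D day 8 and 7 at 2D day 4, MYBL2 the most at 3D day 8 (-2.74 ± 0.17). Of 18 transcriptional regulators of these inhibitor and cyclin genes, 4 were higher and 9 lower at 3D day 8, and 6 higher and 6 lower at 2D day 4, so 13 and 12 of 18 passed where 62.8% and 59.9% of all genes did. MYC, which activates CCND2 and represses inhibitor genes, fell from 98.3 FPKM to 20.9 at 3D day 8 (-2.16 ± 0.21) and 31.9 at 2D day 4 (-1.60 ± 0.18). FOSL1, an AP-1 subunit, was lower in both (-3.78 ± 0.29 and -2.17 ± 0.26), while FOXO4, of the family that drives CDKN1B, rose from 0.778 FPKM by 1.03 ± 0.15 and 1.62 ± 0.13. The other FOXO genes of the list, named after their values were seen, were more abundant at day 0. FOXO3 (38.4 FPKM) was lower at 3D day 8 (-1.10 ± 0.17) with no call at 2D day 4 (0.07 ± 0.15), and FOXO1 (6.47 FPKM) was lower at 3D day 8 (-1.06 ± 0.20) with no call at 2D day 4 (-0.20 ± 0.18).

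When the days 3, 5 and 8 in 3D were set against both 2D times, 3 of the 6 members differed, beside 56.9% of all genes. CDKN2C was higher in 3D, as above, with no overlap between the libraries. CCND2 was lower in 3D (-1.02 ± 0.17, adjusted p = 5.87e-05) and so was CCND3 (-0.43 ± 0.09, adjusted p = 0.000606), both with some overlap. At near days CCND3 averaged 22.2 and 22.1 FPKM (3D days 3 and 5) against 23.3 (2D day 4), and CCND2 17.2 and 11.6 against 18.2. At the later times of 3D day 8 and 2D day 11, CCND3 averaged 17.0 against 32.6 FPKM and CCND2 6.00 against 27.4. CDKN1B (0.10 ± 0.09, adjusted p = 0.349) and CCND1 (-0.17 ± 0.14, 0.316) did not pass, although CDKN1B did after quantile normalization (0.25 ± 0.09, adjusted p = 0.0281). CDKN2B (-0.53 ± 0.34) passed without 2D day 4 replicate 1, where it was listed at 0 (-0.79 ± 0.32, adjusted p = 0.0434). The sampled days differ between the cultures, so culture and age cannot be told apart. In the same comparison 14 of 18 mitosis and 16 of 20 replication genes were higher in 3D, and 1 replication gene, POLA1, was lower. Of all 11774 genes tested, 2602 were higher and 4094 lower. The mean log2(FPKM + 1) of the 2 lists was 4.26 and 4.24 at 3D day 3 against 2.62 and 3.16 at 2D day 4. At 3D day 8, however, it was 3.20 and 3.48, below the 3.58 and 3.70 of 2D day 11. CDK6 was lower in 3D (-1.14 ± 0.10) and SMAD3, a TGF-beta signal transducer, was too (-1.49 ± 0.11), while ID3, an inhibitor of differentiation factors, was higher (3.01 ± 0.16).

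In the knockdown lines at seeding, the clearest difference among the members was in CCND1. At day 0, none of the 6 members differed between DENND5A-KD and wild-type cells (5.52% of all genes did), with 1, CCND1, at an unadjusted p under 0.05. CCND1 read 41.9 and 58.2 FPKM in DENND5A-KD cells, above all 4 wild-type libraries, a difference of 0.63 ± 0.21 (adjusted p = 0.0935) that passed after quantile normalization (0.0345) and median-ratio scaling (0.0389). In AVL9-KD cells CCND1 was the 1 member of 6 that differed (18% of all genes), at 65.8 and 58.7 FPKM (0.95 ± 0.21, adjusted p = 0.00391), and the call was lost without line 1 (0.87 ± 0.27, adjusted p = 0.0642). CDKN1A was higher in both knockdowns at day 0, at 27.7 FPKM (1.11 ± 0.29, adjusted p = 0.026) and 36.7 FPKM (1.53 ± 0.29, adjusted p = 0.00133) against 12.3 in wild type. CDKN1B read 4.63 and 4.86 FPKM in DENND5A-KD and 6.81 and 4.88 in AVL9-KD cells and did not pass in either.

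On inserts at day 4, 3 of 6 members were higher in DENND5A-KD than in wild-type cells, beside 5.54% of all genes that were higher (11.3% differed in either direction). CDKN2B read 13.3 and 6.95 FPKM against 0, 2.75 and 1.27 in wild type (2.38 ± 0.53, adjusted p = 0.00544). These were its highest values in the series. CDKN2C read 5.24 and 3.99 FPKM against 2.76, 1.95 and 2.06 (0.78 ± 0.15, adjusted p = 0.00135), which is near its day 0 level. CCND2 read 34.5 and 42.1 FPKM against 15.9, 24.2 and 14.5 (1.06 ± 0.28, adjusted p = 0.0152). For all 3 the groups did not overlap, nor did they for CCND1, which did not pass (0.48 ± 0.22, adjusted p = 0.19). The share of all genes without overlap was not counted. CDKN1B, at 10.1 and 10.4 FPKM, did not pass (-0.08 ± 0.15, adjusted p = 0.797).

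These 3 calls rest on few libraries. In a fit of these groups alone none passed (adjusted p of 0.112 to 0.134), nor without DENND5A-KD line 1 (CDKN2B 1.96 ± 0.67, adjusted p = 0.137, CDKN2C 0.62 ± 0.18, 0.0642, CCND2 1.20 ± 0.35, 0.0717). The CCND2 call was also lost without line 2 (0.113) and without wild-type replicate 1 or 3 (0.0567 and 0.0589), and the CDKN2B call with a pseudocount of 0.1 (0.0526). In the same comparison 16 of 18 mitosis genes and 17 of 20 replication genes were higher in DENND5A-KD cells (medians 1.35 and 0.71), among them BIRC5 (1.48 ± 0.21) and MCM5 (1.49 ± 0.17), and SKP2 was higher by 0.62 ± 0.13. Those 16 and 17 calls fell to 0 and 1 with these groups fitted alone and to 5 and 8 without line 1, and the 17 to 10 without wild-type replicate 3. The part of these genes in the result was not tested. DMRTA1, the neighbour of CDKN2B, read 1.48 and 1.78 FPKM in these DENND5A-KD libraries against 0.0541 to 0.108 in wild type. It reached the 1 FPKM needed for testing in knockdown libraries alone, so its difference is given with no test.

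**Figure D5:**
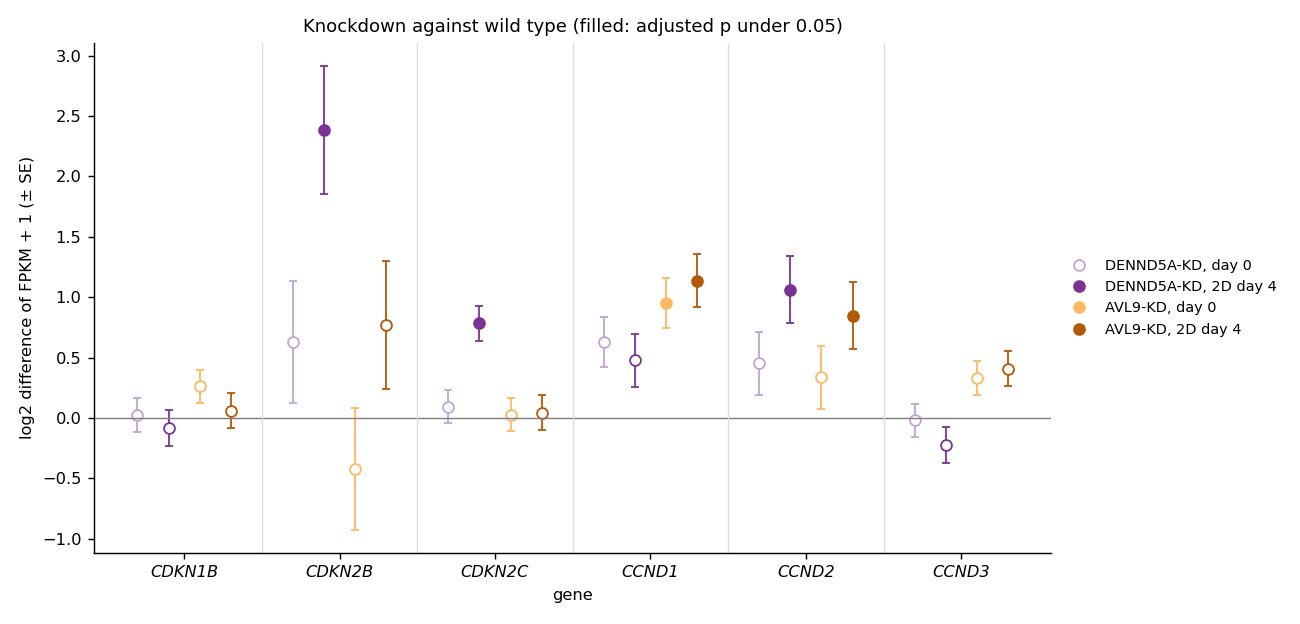
Log2 difference of FPKM + 1 between knockdown and wild-type cells (vertical axis, bars are standard errors from limma) for the 6 tested genes (horizontal axis) at day 0 and 2D day 4. Filled points passed an adjusted p of 0.05. CDKN1B has no filled point, CDKN2B and CDKN2C are filled for DENND5A-KD at 2D day 4 (2.38 and 0.78), and CCND1 for AVL9-KD at both times (0.95 and 1.14).

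In AVL9-KD cells on inserts at day 4, 2 of 6 members were higher than in wild type, beside 18.7% of all genes that were higher (21% differed in either direction). CCND1 read 16.3 and 21.6 FPKM against 9.15, 9.75 and 5.64 (1.14 ± 0.22, adjusted p = 0.00139, and 0.121 with these groups fitted alone). CCND2 read 30.9 and 34.6 FPKM (0.85 ± 0.28, adjusted p = 0.0352). Neither gene overlapped between the groups, and CCND3, which did not pass, did not overlap either. The share of all genes without overlap was not counted here. The CCND2 call was lost under quantile normalization (0.64 ± 0.29, adjusted p = 0.137) and median-ratio scaling (0.60 ± 0.28, 0.155), which lower the median of all genes in this comparison from 0.19 to 0.00 and -0.02. It was lost also without the low-value filter (0.0532), with the groups fitted alone (0.15), and without either AVL9-KD line or wild-type replicate 1 or 3 (0.0771 to 0.143). CCND3 read 31.8 and 30.6 FPKM (0.41 ± 0.15, adjusted p = 0.0528), and passed with a term for the 5 libraries (0.0455) and without wild-type replicate 2 (0.0423). CDKN2C stayed low, at 2.29 and 2.38 FPKM (0.04 ± 0.15), CDKN2B split between the lines at 4.85 and 1.07 FPKM, and CDKN1B read 11.8 and 11.1. CDKN1A was higher (13.7 against 2.92 FPKM, 1.88 ± 0.31, adjusted p = 0.000317), and so were MYC (1.35 ± 0.22) and CDK6 (0.78 ± 0.16), whereas none of the mitosis and 1 of the replication genes was (0 without line 1).

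Within each knockdown, CDKN1B rose and all 3 D cyclins fell from day 0 to 2D day 4, and 5 of 6 members passed in each (42.3% of all genes in DENND5A-KD and 53.9% in AVL9-KD cells). CDKN1B rose by 0.97 ± 0.16 in DENND5A-KD and 0.87 ± 0.16 in AVL9-KD cells. The difference in CCND1 was -2.01 ± 0.24 and -1.68 ± 0.24, that in CCND2 -1.06 ± 0.30 and -1.16 ± 0.30, and that in CCND3 -0.71 ± 0.16 and -0.43 ± 0.16. CDKN2C fell in AVL9-KD cells (-0.83 ± 0.16, adjusted p = 0.00023), while in DENND5A-KD cells the difference was -0.15 ± 0.16 (adjusted p = 0.482). CDKN2B rose in DENND5A-KD cells (1.53 ± 0.58, adjusted p = 0.0409), a call lost without any 1 of 3 libraries, line 1 at day 4 or either line at day 0 (0.106 to 0.246), under quantile normalization (0.0500167), with a pseudocount of 0.1 (0.289) and without the filter (0.0702). The CCND2 call in DENND5A-KD cells was lost without line 2 at day 0 (0.0838) or line 1 at day 4 (0.0642), and in AVL9-KD cells without line 4 at day 0 (0.0884) and with the groups fitted alone (0.0714). The CCND3 call in AVL9-KD cells was lost without any 1 of the 4 libraries (0.0593 to 0.13), under quantile normalization (0.0501) and with the groups fitted alone (0.0541). CDKN2B in AVL9-KD cells passed only without line 4 at day 4 (1.71 ± 0.67, adjusted p = 0.0454).

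The test of the difference between these courses called no member. For DENND5A-KD against wild type, none of 6 passed (1.83% of all genes did) and 2, CDKN2B and CDKN2C, had an unadjusted p under 0.05. The interaction was 0.69 ± 0.20 for CDKN2C (adjusted p = 0.0842) and 1.76 ± 0.73 for CDKN2B (0.286). The CDKN2C term passed with a replicate block, which ties libraries of 1 knockdown line and also wild-type libraries of 1 number (0.70 ± 0.17, adjusted p = 0.0281), with a term for the 5 libraries (0.0316), under quantile normalization (0.0478) and median-ratio scaling (0.0464), and without line 2 at day 4 (0.0413). For AVL9-KD none passed (1.22% of all genes) and none had an unadjusted p under 0.05, the largest term being 1.19 ± 0.73 for CDKN2B. From 2D day 4 to day 7 in DENND5A-KD cells no member passed (0.051% of all genes), with 2, CDKN2B and CDKN2C, at an unadjusted p under 0.05. CDKN2B read 3.34 and 3.35 FPKM at day 7 and CDKN2C 2.91 and 3.24, both below the day 4 libraries of that knockdown.

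The D cyclin mixture also differed by genotype. CCND2 made 55.2 and 54.7% of D cyclin FPKM in DENND5A-KD cells at 2D day 4 and 55.2 and 56.7% at day 7, above all 6 wild-type 2D libraries (32.4 to 43.8%). CCND3 made 28.8 and 28.1% at day 4 and 29.1 and 29.3% at day 7, below all 6 (40.3 to 51.4%). No wild-type cells were sampled at day 7. The CCND3 share was already lower at day 0, 21.3 and 19.1% against 25.8 to 29.6% in wild type. The CCND2 share at day 0, 49.5 and 49.4%, was within the wild-type range (40.4 to 51.8%). In AVL9-KD cells at 2D day 4 CCND2 made 39.1 and 39.9%, within the wild-type range, and CCND1 20.6 and 24.9%, above it (10.4 to 18.6%). The CCND3 share was lower in AVL9-KD cells too, at 25.4 and 21.4% at day 0 and 40.27 and 35.2% at 2D day 4. These lay below all wild-type libraries of day 0 and of 2D, the lowest of which read 25.8% and 40.31%. CDKN1B per 100 FPKM of D cyclins was 16.2 and 13.4 in DENND5A-KD and 14.9 and 12.7 in AVL9-KD cells at 2D day 4, below all 3 wild-type libraries of that day (17.2 to 26.6). These values overlapped with wild-type 2D day 11 (14.3 to 16.6). No test was run on these knockdown shares.

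The day 14 library, 1 of the 5 that stood apart and without a replicate, was set against the day 0 mean. On the log2 scale the difference was -3.50 for CCND2, -1.50 for CCND1, -0.44 for CCND3, -0.52 for CDKN2B, 1.17 for CDKN1B and 0.26 for CDKN2C. Among all genes tested, 11.7% were at least 2-fold lower and 12.6% at least 2-fold higher in that library.

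The genes most like each member over the 13 group means were found among 8076 candidates by Pearson's r of log2(FPKM + 1), which describes a likeness of level only. For CDKN1B they were SGSM2, ECH1 and ZBTB14 (r = 0.98, 0.97 and 0.97), and for CDKN2C WDR76, CASP6 and ACTL6A (0.95, 0.91 and 0.91). CDKN2B had the weakest, TTYH3, SLC38A7 and VEGFB (0.87, 0.86 and 0.84). CCND1 was closest to DDX21, GPN2 and BOP1 (0.98 each), of which DDX21 and BOP1 serve ribosome production. CCND2 was closest to SLC2A1, which encodes the glucose transporter GLUT1, DPYSL3 and TLE1 (0.98 each), and CCND3 to TRIOBP, DNPEP and LMAN1 (0.97, 0.96 and 0.96). Over the 29 single libraries the r of these pairs was 0.70 to 0.97.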

How the data were processed

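The authors deposited 1 table per library with an FPKM value for each of 24223 Ensembl dog genes. Per the submitters' processing notes HISAT2 2.1.0, Cufflinks 2.2.1 and the builds canFam3 and CanFam3.1 were used. Any further scaling is not given in the sources used here. Members were matched by gene name. The members, gene lists and the 5 libraries that stand apart were chosen with earlier results of these data known. Genes that reached 1 FPKM in 2 or more libraries (11774) were tested on log2(FPKM + 1) by limma 3.58.1 with an intensity trend (R 4.3.3). The model had 13 group means over 29 libraries, and tests were 2-sided, adjusted by Benjamini-Hochberg over all genes and called at 0.05. The log2 scale with a pseudocount of 1 understates changes of low genes. Named genes were all members, DENND5A, AVL9, 13 fixed pathway partners, from each list at most 4 called genes of smallest adjusted p per direction, and the 3 genes most like each member. Of the partners, CDK2 is given for the day 14 library only. This model pairs no libraries. A replicate block, one of the alternatives, ties libraries of 1 genotype and number, wild type included. The numbers were taken to mark a shared source in knockdown cells, whose labels number the knockdown itself (r of deviations 0.01 to 0.0966 in DENND5A-KD and 0.358 in AVL9-KD cells), but not in wild type. The pipeline was tested on simulated data. Alternatives were quantile and median-ratio scaling, a pseudocount of 0.1, no filter, a replicate block, a term for the 5 libraries or their omission, fitting groups alone and leaving out each library. Sequences and coordinates are not used here.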

Additional observations from a re-analysis of the deposited data

Results flagged for a closer look

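At wild-type day 0, CCND3 read 28.2 FPKM in replicate 4 against 35.1 to 35.4 in the other 3, a gap large enough to mark that library as lying apart by Dixon's criterion. Of 6 members checked this way it was the 1 marked. Chance marks about 1 in 20 for each gene checked, so 1 mark among 6 may arise by chance. That library also had the lowest day 0 values of CCND1 (24.4 FPKM) and of FPKM summed over all genes (308001). For 3 of 6 members the change from day 0 differed between 3D days 3, 5 and 8 and 2D days 4 and 11. In the same test 56.9% of all genes differed. The shared day 0 libraries cancel in it, and culture and age cannot be told apart because the sampled days differ. CDKN2C stood 0.74 higher in 3D, and CCND2 (-1.02) and CCND3 (-0.43) stood lower, on the log2 scale. No member's interaction between knockdown and culture time passed.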

How the results depend on the processing

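Over the members and comparisons, settings other than leaving out a library left the call as it was for 871 values, added one for 17 and removed one for 24. Leaving out 1 library kept 680, added 7 and removed 33, and no called value changed sign under any of these. The number of the 6 members called changed by more than 1.5 times as follows, and the cause was not tested. For 3D day 3 against day 0 it went from 5 to 3 without the 5 libraries that stand apart (3 to 5 with 1 library left out). For 3D day 8 against day 3 it went from 1 to 2 with a replicate block or a term for the 5 libraries and to 0 with the groups fitted alone (0 to 1 with 1 left out). For 2D day 11 against day 4 it went from 1 to 2 under quantile normalization, median-ratio scaling or a replicate block and to 0 with the groups alone (0 to 2 with 1 left out). For DENND5A-KD at day 0 it went from 0 to 1 under either scaling, and for AVL9-KD at day 0 it was 1 (0 to 1 with 1 left out). At 2D day 4 it went from 3 to 0 with the groups alone for DENND5A-KD (0 to 3 with 1 left out). For AVL9-KD it went from 2 to 1 under either scaling or without the filter and to 0 with the groups alone (1 to 3 with 1 left out). From day 0 to 2D day 4 it was 5 in DENND5A-KD cells (3 to 5 with 1 left out) and went from 5 to 3 with the groups alone in AVL9-KD cells (3 to 5 with 1 left out). For the DENND5A-KD interaction it went from 0 to 1 under either scaling, a replicate block or a term for the 5 libraries (0 to 1 with 1 left out).

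In wild-type cells 19 of 41 pairs of libraries with the same number deviated together (r over 0.1), with r of -0.16 to 0.558. None of the 6 DENND5A-KD pairs did, so these r do not decide which numbers pair libraries. Wild-type libraries were left unpaired because only the knockdown labels number the knockdown itself. Pairs between groups of 2 libraries give the same r for both numbers, so the pairs are not independent. With the replicate block the count for 2D day 11 against day 0 went from 3 to 5, with CDKN2B (1.03 ± 0.40, adjusted p = 0.0322) and CDKN2C (-0.27 ± 0.11, 0.0368) added. CCND3 was added for 2D day 11 against day 4 (0.0329), CDKN2C for 3D day 8 against day 3 (0.0428) and for the DENND5A-KD interaction (0.0281), and no other member's call changed.

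Counts over all genes changed more. With the groups alone 140 calls at 24 h fell to 16, 1838 between 3D day 3 and day 8 to 2, 2118 for AVL9-KD at day 0 to 342, and at 2D day 4 1334 for DENND5A-KD to 97 and 2474 for AVL9-KD to 25. Over all alternatives the count ran from 2337 to 4802 for 3D day 3 against 24 h (4054), from 0 to 590 for 2D day 11 against day 4 (245) and from 207 to 894 for DENND5A-KD at day 0 (650). It ran from 3315 to 5635 (4983) and from 3502 to 6885 (6346) for the courses of DENND5A-KD and AVL9-KD cells, from 0 to 213 for DENND5A-KD day 7 against day 4 (6), and from 45 to 462 (215) and 15 to 270 (144) for the interactions. The median of all genes lay at -0.13 for 3D day 8 against day 0, -0.19 for day 8 against day 3, 0.11 for AVL9-KD at day 0 and 0.19 at 2D day 4, and between -0.02 and 0.01 in these under either scaling. Arms of 2 libraries leave 1 when a library is left out, and that library is assumed to vary like the other groups. CDKN2B reached 1 FPKM in 22 of 29 libraries, and no interval can be given without read counts.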
